A study of Mus musculus with 7 samples.

Results

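The CC chemokine receptors were followed in group 2 innate lymphoid cells (ILC2s) with and without the transcriptional repressor Gfi1. Every array probe whose transcript accession belonged to Ccr1, Ccr2, Ccr3, Ccr4, Ccr6, Ccr7, Ccr8, Ccr9 or Ccr10 was taken, which gave 10 probes for 9 genes among the 39429 probes on the array. Ccr8 had 2 probes and each other receptor had 1. Wild-type samples (Gfi1+/+) were compared with samples homozygous for Gfi1GFP/GFP, an allele that carries a GFP cassette in the Gfi1 locus, so that it reports the promoter and abolishes the function of the gene. All mice of both genotypes received daily IL-25 for 4 days, and mesenteric lymph node cells that were Lin- and positive for c-Kit, CD127, ICOS and Sca-1 were sorted on day 5. A wild-type sample pooled 3 mice and a knockout sample pooled 6 mice. Both kinds of sample were then grown for 6 days with IL-2 (50 ng/ml), IL-7 (10 ng/ml) and IL-25 (50 ng/ml), so the values describe cytokine-expanded cells and not freshly sorted ones. There were 4 wild-type and 3 knockout arrays, with sample RNA in the red channel and a commercial mouse reference RNA in the green channel. The lack of Gfi1 was not restricted to ILC2s in this allele. The age and strain of the mice are not given in the sources used here.

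Chemokine receptors are G protein-coupled receptors that steer cells along gradients of chemokines. The CC receptors differ in the ligands they bind and thereby in the tissues a lymphocyte enters: Ccr7 guides cells to and within lymph nodes, Ccr9 to the small intestine, Ccr4 and Ccr10 to skin, Ccr10 also to mucosal surfaces, and Ccr6 is carried by many type 17 lymphocytes. Ccr1, Ccr2 and Ccr3 are known from recruitment in inflammation. Gfi1 silences genes by binding DNA with the core AATC, and it takes part in keeping ILC2s committed to type 2 cytokines.

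Promoter sequence was examined for 7 of the 9 receptors, with 8 windows of 300 bases (250 before and 50 after an annotated transcription start) taken from RefSeq, assembly GRCm38.p6. Ccr7 and Ccr10 were not among them. Ccr2 and Ccr6 are shown because they are the receptors with a window whose transcripts were called higher in the knockout. The Ccr2 window is chr9:124101933-124102232 and the first of the 2 Ccr6 windows is chr17:8235793-8236092, both on the plus strand, and capitals mark AATC or its reverse complement GATT.

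Ccr2: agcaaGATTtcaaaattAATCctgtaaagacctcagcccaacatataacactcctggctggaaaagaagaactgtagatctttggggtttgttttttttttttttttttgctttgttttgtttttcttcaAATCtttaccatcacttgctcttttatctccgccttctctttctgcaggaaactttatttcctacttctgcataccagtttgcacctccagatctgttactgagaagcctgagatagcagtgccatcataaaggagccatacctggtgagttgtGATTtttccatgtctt

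Ccr6: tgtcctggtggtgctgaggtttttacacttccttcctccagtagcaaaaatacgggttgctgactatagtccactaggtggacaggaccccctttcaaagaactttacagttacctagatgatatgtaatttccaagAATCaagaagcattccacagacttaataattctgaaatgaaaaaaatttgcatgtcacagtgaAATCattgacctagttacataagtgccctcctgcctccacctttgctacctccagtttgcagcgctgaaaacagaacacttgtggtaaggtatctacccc

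The Ccr2 window held 4 matches to AATC on either strand and the Ccr6 windows held 2 and 1. AATC occurred in 73.1% of 32851 promoter windows of this length, with a mean of 1.56 matches per window, so a match is common. The longer Gfi1 stretch AAATCAC, found in 3.2% of windows, was present once in the Ccr2 window, on the minus strand, in a match that includes one of the GATT letters counted above. Among receptors that were not called, the windows of Ccr1, Ccr3, Ccr8 and Ccr9 held 3, 2, 1 and 2 matches to AATC, and the Ccr4 window held 0. These matches are letters in a window, and binding was not measured.

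Gfi1 itself was read by 1 probe. Its log2 ratios of sample over reference were 1.90, 1.87, 2.36 and 1.96 on the wild-type arrays and 4.29, 4.25 and 4.29 on the knockout arrays, a 4.77-fold higher signal in the knockout (limma adjusted p = 1.63e-05). Whether this probe reads sequence before or after the GFP insertion could not be told, so its signal checks no label. ILC2 identity was read from 14 listed markers, all well above background on every array. Of these, Gata3, Il1rl1, Ly6a and Areg were lower in the knockout and Il17rb was higher. That is 35.7% called at a limma adjusted p of 0.05, against 7.53% of all genes tested. The median log2 difference of the 14 markers, knockout minus wild type, was -0.30. Their summed sample channel signal (normalized, unlogged) was 834377 to 1133130 in wild type and 603311 to 747782 in the knockout. Between 67.4% and 80.9% of probes were well above background in the sample channel. The scanner's own quality summary asked for evaluation of knockout array 3 and passed the other 6 arrays. Xist ratios were 2.79 to 3.26 on wild-type arrays 3 and 4 and knockout array 3 and 0.04 to 0.13 on the other 4 arrays, with Ddx3y in the opposite order, so both kinds of pool occurred in both genotypes.

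All 9 receptors passed the filter on dim probes, which asked for a sample signal well above background on at least 3 arrays. Ccr10, Ccr7, Ccr2 and Ccr6 were higher in knockout ILC2s, no receptor was called lower, and Ccr1, Ccr3, Ccr4, Ccr8 and Ccr9 were not called. That is 4 of 9 higher. At an unadjusted limma p of 0.05, 6 would be higher and 1 (Ccr8) lower. The share of all genes at that unadjusted threshold is not given, so unadjusted counts here and below have no background to be set against. Over all 25347 genes tested, 7.53% were called at an adjusted p of 0.05 (limma, Benjamini-Hochberg over all genes), 3.29% higher and 4.24% lower. Of the genes tested 16690 had a symbol. The rest were counted by their transcript identifier and are part of every share of all genes given here. The median log2 difference, knockout minus wild type, was 0.36 over the receptors and -0.01 over all genes. All knockout arrays lay above all wild-type arrays for 5 receptors, the called ones and Ccr4, against 8.08% of all genes, and the groups overlapped for the other 4. The groups did not overlap, in either direction, for 18.3% of genes tested. In these bulk samples, fewer cells of a type and less RNA per cell cannot be told apart. Each probe has its own response, so ratios and signals are compared between arrays and not between receptors.

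**Figure D1:**
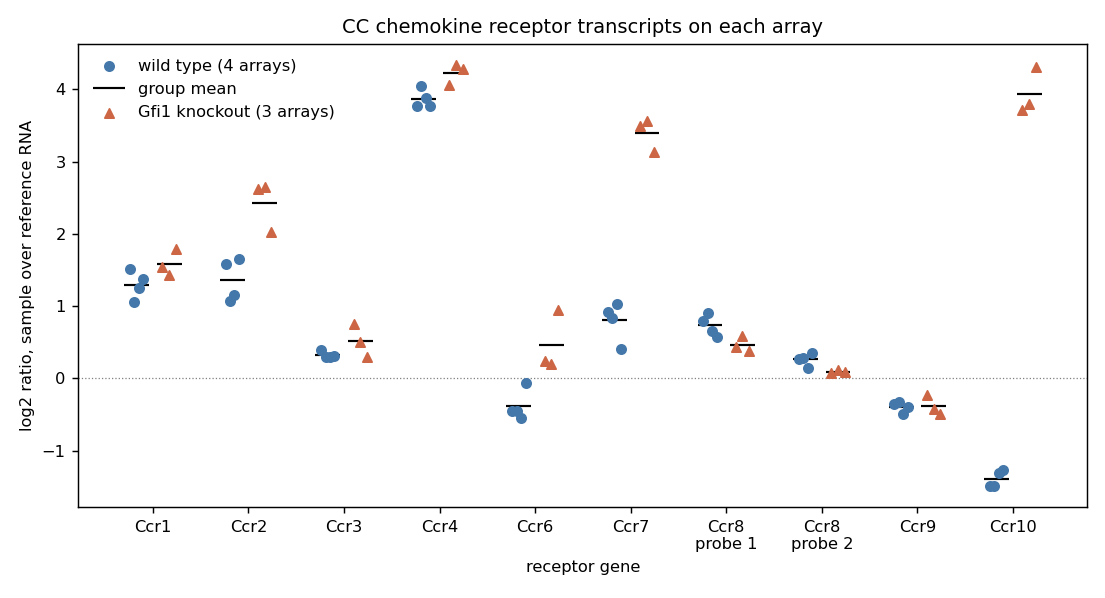
Log2 ratio of sample over reference RNA (vertical axis) for each receptor probe (horizontal axis), with 1 point for each of 4 wild-type arrays (circles) and 3 knockout arrays (triangles) and a bar at each group mean. Ccr10 lies at -1.49 to -1.26 in wild type and at 3.71 to 4.31 in the knockout, while the points of Ccr9 overlap.

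Ccr10 binds Ccl27 and Ccl28, chemokines of skin and mucosal epithelium. Its log2 ratios were -1.49, -1.48, -1.31 and -1.26 on wild-type arrays 1 to 4 and 3.71, 3.79 and 4.31 on knockout arrays 1 to 3. Every knockout value was far above every wild-type value, and the receptor went from below the reference RNA to above it. The means were -1.39 ± 0.12 (SD, n = 4) and 3.94 ± 0.33 (SD, n = 3). The difference was 5.32 ± 0.14 (SE; 95% confidence interval 5.00 to 5.65), or 40.1-fold, with a limma adjusted p of 2.08e-07. With the scanner's own log ratio, which has no offset, the difference was 6.71 (limma adjusted p = 5.9e-05). By size of difference it was in place 2 among 16690 tested genes with a symbol. The scanner's processed red signal, which is not scaled between arrays, was 61.0, 46.3, 65.7 and 148.0 in wild type and 8224, 6680 and 14435 in the knockout. The wild-type signals were low but well above background on all 4 arrays. In the sample channel alone the difference was 48.5-fold, and the reference channel differed by 0.28.

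Ccr7 is the receptor for Ccl19 and Ccl21, the chemokines of lymph node T cell zones. Its ratios were 0.92, 0.84, 1.04 and 0.41 in wild type and 3.49, 3.56 and 3.13 in the knockout. The groups were well separated, with wild-type array 4 the lowest. The means were 0.80 ± 0.27 (SD, n = 4) and 3.39 ± 0.23 (SD, n = 3), a difference of 2.59 ± 0.16 (SE; 95% confidence interval 2.23 to 2.95), or 6.02-fold (limma adjusted p = 3.58e-05). It was in place 22 by size of difference. The processed red signal was 790, 554, 744 and 603 in wild type and 6699, 6117 and 6089 in the knockout, and the difference in the sample channel alone was 7.21-fold.

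Ccr2, the receptor for Ccl2 and related chemokines that recruit monocytes, had ratios of 1.59, 1.08, 1.15 and 1.65 in wild type and 2.61, 2.65 and 2.02 in the knockout. All knockout values were higher, and knockout array 3 came nearest to the wild-type range. The difference was 1.06 ± 0.19 (SE; 95% confidence interval 0.63 to 1.49), or 2.09-fold (limma adjusted p = 0.00979), and 2.64-fold in the sample channel alone. The reference RNA was above background for this probe on 1 of 7 arrays, so its ratio rests on a dim denominator. With the scanner's own log ratio the difference was 0.77 and was not called (limma adjusted p = 0.6045).

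Ccr6 binds Ccl20. Its ratios were -0.45, -0.44, -0.54 and -0.07 in wild type and 0.24, 0.21 and 0.95 in the knockout. The groups did not overlap in the ratio, but wild-type array 4 and knockout array 2 were close. The difference was 0.84 ± 0.19 (SE; 95% confidence interval 0.42 to 1.27), or 1.79-fold (limma adjusted p = 0.0259). With the scanner's own log ratio it was 2.14 and still called (limma adjusted p = 0.0466). The sample signal was above background on 2 of 4 wild-type arrays and on all 3 knockout arrays, with processed red signals of 45.8, 29.1, 30.7 and 238 in wild type and 206, 171 and 445 in the knockout. In the sample channel alone the log2 signals were 6.59, 6.67, 6.56 and 7.65 against 7.58, 7.52 and 8.38, so that wild-type array 4 lay among the knockout arrays and the difference was not called (0.96, limma adjusted p = 0.128). Without that array the sample channel difference was 1.23 (limma adjusted p = 0.0317). The ratio no longer passed when wild-type array 1, 2 or 3 was dropped (limma adjusted p = 0.0645, 0.0755 and 0.0681).

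**Figure D2:**
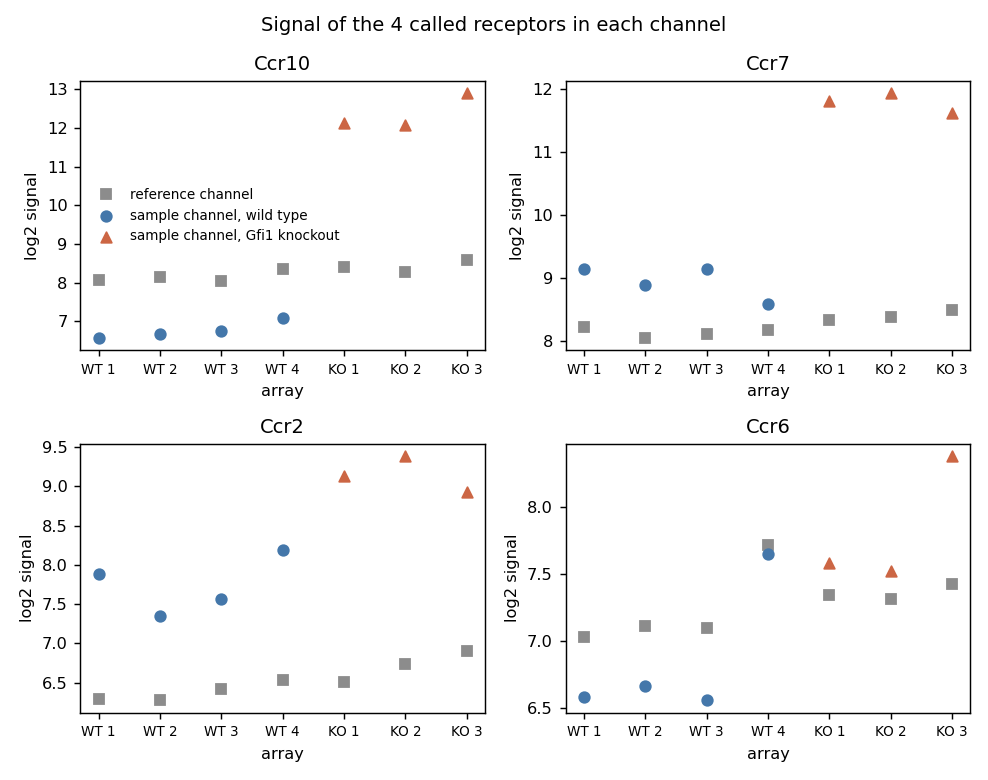
Log2 signal (vertical axis) on each array (horizontal axis) of the 4 called receptors, with squares for the reference channel, circles for wild-type and triangles for knockout sample channels. For Ccr6, wild-type array 4 stands at 7.65, among the knockout arrays at 7.52 to 8.38, and the other wild-type arrays at 6.56 to 6.67.

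Ccr4 and Ccr8 are receptors typical of type 2 lymphocytes. Ccr4, which binds Ccl17 and Ccl22, had ratios of 3.77, 4.04, 3.87 and 3.77 in wild type and 4.06, 4.34 and 4.28 in the knockout, with all knockout values above by a small margin. The difference was 0.36 ± 0.10 (SE; 95% confidence interval 0.13 to 0.59), or 1.28-fold, and missed the threshold (limma adjusted p = 0.0705). Ccr4 passed under 2 of 24 alternatives with a test: in the sample channel alone (0.44, limma adjusted p = 0.0409) and without knockout array 1 (0.44, limma adjusted p = 0.03995). Among those it missed were slide as a block (0.43, limma adjusted p = 0.164) and scale normalization (0.27, limma adjusted p = 0.283). The processed red signal was 10556, 10662, 10316 and 12374 in wild type and 16257, 15382 and 19374 in the knockout.

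Ccr8, a receptor for Ccl1, was the receptor with a negative difference. Its brighter probe had ratios of 0.80, 0.90, 0.66 and 0.58 in wild type and 0.43, 0.59 and 0.39 in the knockout. Wild-type array 4 fell just below knockout array 2, and the groups otherwise separated. The difference was -0.26 ± 0.10 (SE; 95% confidence interval -0.49 to -0.04) and was not called (limma adjusted p = 0.177). The second probe gave 0.27, 0.28, 0.15 and 0.36 against 0.07, 0.12 and 0.10, with all knockout values below and a difference of -0.17 (limma adjusted p over probes 0.289; 7.47% of the 30293 probes tested were called). All knockout values lay below all wild-type values for 10.2% of genes tested.

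Ccr1 and Ccr3 lie beside Ccr2 in one receptor cluster on chromosome 9. Ccr1, which binds Ccl3 and Ccl5, had ratios of 1.51, 1.05, 1.25 and 1.38 in wild type and 1.54, 1.44 and 1.79 in the knockout, and the groups overlapped. Its difference was 0.29 ± 0.13 (SE; 95% confidence interval 0.01 to 0.57; limma adjusted p = 0.243), and the reference RNA was above background for it on 0 of 7 arrays. Ccr3, the eotaxin receptor of eosinophils, had ratios of 0.40, 0.29, 0.29 and 0.32 against 0.76, 0.51 and 0.29. Knockout array 3 was at the wild-type level and the other knockout arrays were above it. The difference was 0.20 ± 0.11 (SE; 95% confidence interval -0.05 to 0.44; limma adjusted p = 0.388).

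Ccr9, the receptor for Ccl25 of the small intestine, had ratios of -0.36, -0.33, -0.49 and -0.40 in wild type and -0.23, -0.42 and -0.50 in the knockout. The groups overlapped fully. The difference was 0.01 ± 0.09 (SE), and its 95% confidence interval of -0.19 to 0.21 bounds a change in either direction at this precision (limma adjusted p = 0.969). Its sign turned under several other settings.

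**Figure D3:**
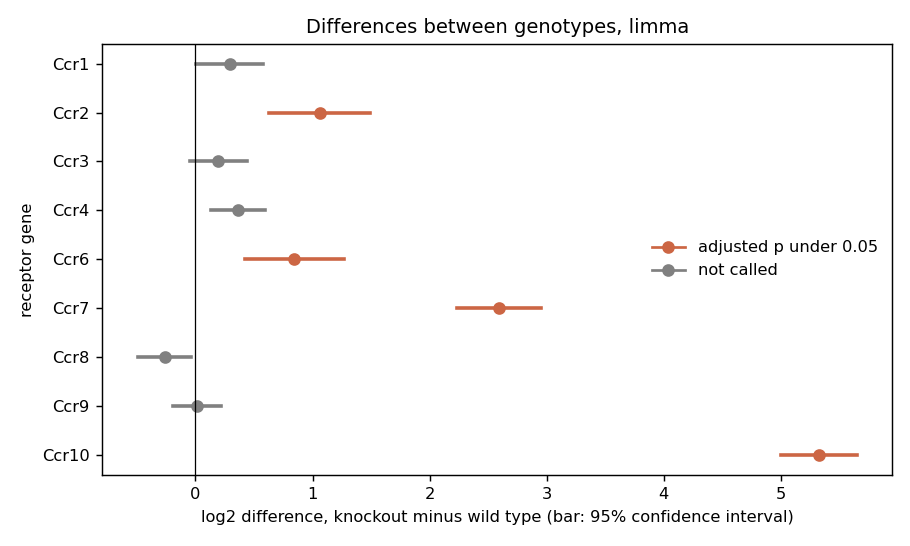
Log2 difference, knockout minus wild type (horizontal axis), for each receptor (vertical axis), from limma on 4 wild-type and 3 knockout arrays, with bars for the 95% confidence interval and colour for an adjusted p under 0.05. Ccr10 stands at 5.32 and Ccr7 at 2.59, and the intervals of Ccr3 and Ccr9 include 0.

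The 7 arrays lay on 3 slides. Slide 1 held knockout array 1 and wild-type array 4, slide 2 held wild-type array 1 and knockout arrays 2 and 3, and slide 3 held wild-type arrays 2 and 3 only. Within slides 1 and 2 the Ccr10 difference was 4.97 and 5.54 and the Ccr7 difference was 3.08 and 2.43. The Ccr2 difference was 0.96 and 0.75, and the Ccr6 difference was 0.31 and 1.03. With slide as a block, Ccr10 and Ccr7 stayed called (limma adjusted p = 0.000168 and 0.00187), while Ccr2 (0.84, limma adjusted p = 0.0928) and Ccr6 (0.72, limma adjusted p = 0.302) did not. That is 2 of 9 receptors called, against 1.89% of all genes in that fit.

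Cells of other types were sought through listed markers. Of 5 tested ILC3 markers, 3 were higher in the knockout and 0 lower (60% called, against 7.53% of all genes). The 3 were the type 17 cytokine genes Il17a (5.62) and Il17f (4.45), and Ccr6 itself, which is also a member of that list. Il23r (0.64, limma adjusted p = 0.063) and Il22 (0.30, limma adjusted p = 0.493) were not called, so the markers did not change to a like extent. Over the 6 ILC3 markers with a probe, the summed sample channel signal (normalized, unlogged) was 892 to 1029 in wild type and 18978 to 29377 in the knockout. Ncr1, in that sum but not tested, was above background on 0 of 7 arrays. Of 11 tested T cell markers 0 were called by limma (3 higher at an unadjusted p of 0.05). Sums of the same kind over the 12 T cell markers with a probe were 11795 to 20463 in wild type and 12314 to 20838 in the knockout. Of 9 tested markers of B and plasma cells, 5 of NK cells, 7 of monocytes, macrophages and dendritic cells, and 2 of eosinophils, 0 were called by limma. At an unadjusted p of 0.05, 1, 2, 1 and 0 of them would be higher and 0 lower. Of 4 tested mast cell and basophil markers, Cpa3 was lower (25% called). Cpa3, Mcpt4 and Tpsb2 were above background on all 7 arrays, and Cma1 on 2 wild-type and 1 knockout arrays. Mcpt8 was above background on 1 wild-type array, and Fcer1a and Ms4a2 on no array. The part of the ILC3 markers in the receptor differences was not tested.

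Of 21 listed CC chemokine genes, ligands of these receptors among them, 14 were tested, of which 1 was higher and 0 lower (7.14% called, against 7.53% of all genes), with a median difference of 0.09. At an unadjusted limma p of 0.05 there would be 2 in each direction. The called gene was Ccl27a, a ligand of Ccr10, with ratios of -0.70, -0.64, -0.26 and -0.61 in wild type and 0.09, 0.06 and -0.16 in the knockout. All knockout values were higher, by 1.47-fold (0.55, limma adjusted p = 0.0243). A second probe of this gene differed by 0.43 (limma adjusted p over probes 0.0167) and the third by 0.35 (0.1002). The call was lost with slide as a block (limma adjusted p = 0.0855), and 0 ligands were higher in the sample channel alone or when knockout array 1 or 2 or wild-type array 1, 2 or 4 was dropped. With wild-type array 3 dropped, 1 ligand was also called lower. Ccl28, the other Ccr10 ligand, was above background on 0 wild-type and 2 knockout arrays and was not tested. Ccl19, a Ccr7 ligand, stood at -0.24 (limma adjusted p = 0.140), and Ccl20, Ccl22, Ccl11 and Ccl26 were above background on no array.

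Of 12 tested chemokine receptors outside the set, 1 was higher, 1 lower and 10 were not called (16.7% called, against 7.53% of all genes; 2 were higher in the sample channel alone), with a median difference of 0.05. Cxcr3, the receptor for interferon-induced chemokines, had ratios of -0.41, -0.36, -0.50 and -0.45 in wild type and 0.09, -0.04 and -0.24 in the knockout, a 1.29-fold rise (limma adjusted p = 0.046). Ccrl2, an atypical receptor, had ratios of 0.39, 0.56, 0.60 and 0.56 against 0.22, 0.09 and 0.03, a 1.33-fold fall (limma adjusted p = 0.020). Both calls were lost with slide as a block (limma adjusted p = 0.251 and 0.200). In this list 0 receptors were higher when knockout array 1 or 2 or any wild-type array was dropped, and 0 were lower without knockout array 2 or 3 or wild-type array 2, 3 or 4. Cxcr4 and Cxcr6 were not called, at -0.06 and 0.24.

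Among homing partners, molecules that act with chemokine receptors in rolling, adhesion and exit, 4 of 16 tested were higher and 0 lower (25% called), with a median difference of 0.08. At an unadjusted limma p of 0.05 there would be 6 higher and 4 lower. The members called lower were 2 in the sample channel alone and 1 with scale normalization or when knockout array 1 or 3 was dropped. Fut7, the fucosyltransferase that makes selectin ligands, had ratios of 1.11, 0.33, 0.82 and 1.88 in wild type and 3.40, 4.05 and 3.76 in the knockout, 6.50-fold higher (limma adjusted p = 0.00102). Gcnt1, which builds the core glycan of selectin ligands, had ratios of 1.54, 1.39, 2.30 and 2.44 against 3.91, 3.72 and 4.25, 4.13-fold higher (limma adjusted p = 0.00167). In both genes the wild-type arrays varied widely but stayed below every knockout array. S1pr1, the receptor for exit from lymph nodes, had ratios of 0.02, 0.01, 0.09 and -0.57 against 1.83, 1.93 and 1.56, 3.69-fold higher (limma adjusted p = 0.000234). Gpr15, a receptor for homing to the colon, was 1.68-fold higher (limma adjusted p = 0.012), which did not pass once slide was a block (limma adjusted p = 0.123). The gut-homing integrin chains Itga4 and Itgb7 were not called, at 0.10 and -0.14.

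Genes that carry or end the receptor signal went in both directions: of 29 tested, 4 were higher and 5 lower (31% called), with a median difference of -0.07. Arrb1, an arrestin that uncouples activated receptors, had ratios of 2.01, 2.49, 2.53 and 2.14 in wild type and 1.25, 1.37 and 0.98 in the knockout, a difference of -1.09 (limma adjusted p = 0.00249). All knockout values were lower. Rgs18 and Rgs10, which speed the switching off of G proteins, differed by -1.05 (limma adjusted p = 0.00892) and -0.78 (limma adjusted p = 0.0030). Gnaq, a G protein alpha subunit, was higher by 0.56 (limma adjusted p = 0.00956). Rgs1, of the same family as Rgs18 and Rgs10, went the other way and was higher by 0.37 (limma adjusted p = 0.0174). The G protein subunits Gng2 and Gnb2 were lower, at -0.44 and -0.31 (limma adjusted p = 0.012 and 0.047). Gnai1 and Pik3r5 were higher, at 0.45 and 0.52 (limma adjusted p = 0.037 and 0.043). With slide as a block 0 of these genes were higher and 2 lower, Arrb1 and Rgs18 (limma adjusted p = 0.0325 and 0.0295), and with knockout array 3 and wild-type array 4 left out together the counts were also 0 and 2. The 4 higher became 1 without wild-type array 4 or knockout array 2, with the scanner's own log ratio and in the sample channel alone, and 2 without knockout array 3 or wild-type array 1 or 2. At an adjusted p of 0.05, the 4 lists were called to different extents against the 7.53% of all genes, and no list was tested as a set.

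The tested genes whose ratios followed each called receptor most closely were found by Pearson correlation over the 7 arrays. With 2 groups of arrays, such values mainly restate the difference between genotypes, and they carry no test. For Ccr10 they were Shc3 (0.999), a signalling adaptor, Nckap5 (0.998) and Il17f (0.998). For Ccr7 they were Enpp2 (0.999), the enzyme that makes lysophosphatidic acid, S1pr1 (0.997) and Rgs1 (0.995). For Ccr2 they were Kif23 (0.993), Nxf7 (0.986) and Snx2 (0.985), and for Ccr6 they were Jpt1 (0.984), Bhlha9 (0.983) and the cytokine gene Il3 (0.982).

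The genes next to each receptor were read from the order of the RefSeq table. Ccr10 on chromosome 11 was flanked by Plekhh3 and Cntnap1, and both were called higher. Plekhh3 had ratios of -3.47, -3.66, -3.66 and -3.54 in wild type and -2.94, -2.67 and -2.55 in the knockout (0.86, limma adjusted p = 0.0015). Cntnap1, a cell adhesion gene of neurons and glia, had ratios of -0.81, -0.92, -0.88 and -0.83 against -0.02, 0.40 and 0.18 (1.05, limma adjusted p = 0.000457). In both, all knockout values were higher, and the 2 calls stayed with slide as a block (limma adjusted p = 0.0258 and 0.0147). The annotated range of Cntnap1 overlaps that of Ccr10, and whether its probe can bind Ccr10 transcripts was not tested. The tested neighbours of Ccr4 (Trim71, -0.08), Ccr6 (Cep43, 0.16), Ccr7 (Tns4, 0.02), Ccr8 (Slc25a38, -0.20) and Ccr9 (Fyco1, -0.14) were not called. Ccr1l1, which lies between Ccr1 and Ccr3, was not called either (0.40, limma adjusted p = 0.489).

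The order around Ccr10 was then widened to the 6 tested genes on each side, a window chosen after the values were seen. Of these 12 genes, against 3.29% higher and 4.24% lower over all genes tested, 5 were called higher and 0 lower. Besides the nearest pair they were Ramp2 (2.19 ± 0.19, SE; limma adjusted p = 0.000224), an accessory protein of peptide receptors, Psmc3ip (0.98 ± 0.20, SE; limma adjusted p = 0.0174), a recombination factor, and Tubg1 (0.61 ± 0.13, SE; limma adjusted p = 0.0237), a gamma tubulin. Genes that were not called lay among them: Tubg2 stood at 0.10 and Ezh1 at 0.01.

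**Figure D4:**
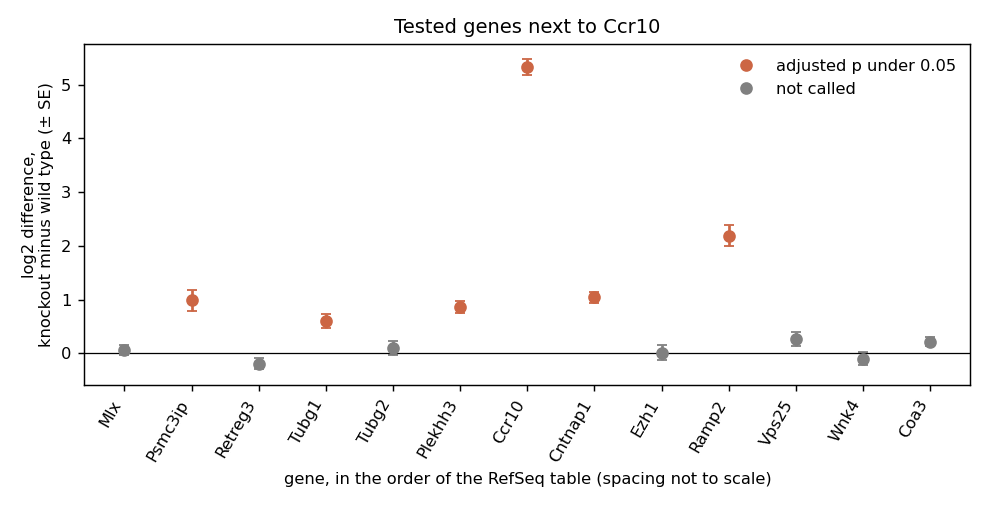
Log2 difference, knockout minus wild type (vertical axis, bars are SE), for Ccr10 and the 6 tested genes on each side in RefSeq order (horizontal axis, not to scale), with colour for an adjusted p under 0.05. Ccr10 stands at 5.32, and Ramp2 has the next highest value, 2.19.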

How the data were processed

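Per the file headers, Agilent Feature Extraction 11.0.1.1 wrote the 7 deposited two-colour scanner files, which give each spot's intensity, unlogged. Version 10.7.3.1 is named in the submitters' processing notes. Each spot's deposited log10 ratio, red to green, was background-subtracted and dye-normalized by that software. The authors' log2 values in the series table equalled those ratios, changed to base 2, within 0.0005. Per the labels, Cy5 carried the sample on every array, with no dye swap.

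Median signals were corrected with normexp (offset 50) and loess (controls at weight 0) in limma 3.58.1 under R 4.3.3; 2597 spots with outlier or background flags were left out. The sample channel alone is after loess and Aquantile. A probe was tested where at least 3 arrays were well above background and each group had at least 2 values, and the brightest probe stood for a gene. The scripts were tested on simulated data. Fits used lmFit and eBayes over all 7 arrays without a block. A fold is 2 to the power of the log2 difference, and the offset draws ratios of dim probes towards 0. Each sample is its own pool of mice. The number of arrays limits the precision. Probes were named through RefSeq (26581 of 39429 had a gene); the array design uses build mm9, so the gene table served for names and order only. Figures used matplotlib 3.10.9.

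Named genes were the receptors, Gfi1, called list members (up to 4 by smallest p for each list, all where 5 or fewer), the 3 genes most like each called receptor and the nearest neighbours. Other genes named from the lists are given as values and were chosen after their values were seen. Of the listed markers and motifs, 1 of each is not reported here. The members and lists were chosen with earlier results of these data known. Alternatives covered background correction, normalization, filters, probes, variance models, slide, replicate number and each array left out. Flag handling, the removal of doubted arrays and the Xist covariate were added after seeing the data.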

Additional observations from a re-analysis of the deposited data

Results flagged for a closer look

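The Ccr6 signal of wild-type array 4 stood apart from the other wild-type arrays in the sample channel, at 7.65 on the log2 scale against 6.56 to 6.67. Its gap to the nearest of them was large for the range of the 4 arrays. Of the 20 sets of wild-type values examined this way (10 receptor probes, each as ratio and as sample channel signal) it was the 1 that stood out, and chance alone marks about 1 set in 20. The reference channel of the same probe was also higher on that array, at 7.72 against 7.03 to 7.11. Of the probes on that array, 80.4% were well above background, the highest share among the wild-type arrays. Its unscaled red signal was also the highest of the 4 for Ccr10, Ccr2, Ccr3, Ccr4 and both Ccr8 probes, but not for Ccr1, Ccr7 or Ccr9. The part of this in the Ccr6 value was not tested. On the ratio scale its Ccr6 value was -0.07 against -0.54 to -0.44.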

How the results depend on the processing

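Ccr10 and Ccr7 were called higher under all alternatives that gave a test, with Ccr10 between 4.97 (within slide 1, untested) and 6.71 (the scanner's own log ratio) and Ccr7 between 2.43 and 3.08 (within slides 2 and 1, untested). Ccr2 lost its call under 3 of 24 alternatives with a test and Ccr6 under 5 of 23, all given with their values above except the series value table, which repeats the scanner's ratio. Ccr6 could not be tested where every array had to be above background. The receptors called numbered 2 with slide as a fixed block and 3 to 5 on leaving out an array. The Ccr9 difference turned negative with the scanner's own log ratio and the series value table (both -0.058), the sample channel alone (-0.048; -0.089 also without wild-type array 4), without wild-type array 3 (-0.02), without knockout array 1 (-0.066), without flags (-0.0085), with the Xist minus Ddx3y covariate (-0.0104) and within slide 2 (-0.10); leaving out each array gave -0.066 to 0.069. Calls over all genes fell from 1908 to 478 with slide as a block, 1103 without wild-type array 4 and knockout array 3, 1060 in the sample channel without wild-type array 4, and 1252 to 1888 on leaving out each array, lowest without knockout array 2 (1252), then wild-type array 4 (1266). With the replicate number as a block there were 1081 calls over all genes and 4 receptors called. Same-numbered arrays correlated at 0.04, 0.24 and 0.02 in their deviations, so the numbers were not taken as a pairing. Median centring gave 1614 calls, 55.5% of them higher, against 43.7% here. The causes of these changes were not tested.

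Low signal limits Ccr6 in wild type and, through the reference channel, the ratios of Ccr1 and Ccr2. The wild-type signal of Ccr10 was low as well. Its difference was 5.32 in the main fit, 5.71 without background correction and 6.71 with the scanner's own log ratio, so its size depends on the processing. With 7 arrays, receptors that missed the threshold are not shown to be unchanged.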

Other observations

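The 3 knockout pools did not order the receptors alike. Knockout array 3 had the highest of the 3 ratios for Ccr10 (4.31), Ccr6 (0.95) and Ccr1 (1.79), and the lowest for Ccr7 (3.13), Ccr2 (2.02), Ccr3 (0.29), the brighter Ccr8 probe (0.39) and Ccr9 (-0.50). This array is also the one whose scanner summary asked for evaluation and the one knockout array with a high Xist ratio (3.26). With the Xist minus Ddx3y covariate the differences of the 4 called receptors were 5.38 for Ccr10, 2.55 for Ccr7, 1.03 for Ccr2 and 0.91 for Ccr6, and all 4 stayed called (limma adjusted p = 1.8e-08, 2.58e-05, 0.0096 and 0.0046).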
